A study of Bos taurus with 5 samples.

Results

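Interferon and innate antiviral genes were examined in longissimus dorsi, a back muscle, of 5 Jiaxian Red cattle aged 18 months. The genes were chosen by symbol alone, with a pattern of names that covers interferon receptors, their kinases and transcription factors, sensors of foreign nucleic acid, interferon-stimulated effectors and antigen-processing genes. The pattern matched 62 of the 9022 genes in the table. Each animal gave 1 library of total RNA, and the 5 libraries formed a single group with no treatment, so no conditions could be compared. The labels gave breed, tissue and library number, but no sex, diet or health status of the animals. Values are FPKM, a fragment count divided by transcript length and sequencing depth, added up over a gene's transcripts. No read counts were used here, so the depth is unknown. The summed FPKM per library ran from 193706 to 223251.

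Interferons are secreted signals that bind paired receptors on the cell surface. Janus kinases attached to these receptors phosphorylate STAT proteins, which enter the nucleus and switch on interferon-stimulated genes, many of whose products block a step of viral replication. Cytosolic sensors such as DDX58 (RIG-I) and IFIH1 (MDA5) detect viral RNA and signal through MAVS and the kinase TBK1 to the interferon regulatory factors, while SOCS proteins damp receptor signalling. Skeletal muscle fibres can respond to interferon themselves, and proteins such as MX1 are known markers of an interferon response in inflamed muscle.

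The antiviral effector genes differed more between the 5 muscles than the other members did, with a median SD on the log2 scale of 0.39 against 0.26. The detected effectors also had a lower median level, 4.15 against 6.54 FPKM. This comparison of SDs was not repeated at matched level or with single libraries left out. Detected genes, those with a mean of at least 1 FPKM, made up 49 of the 62 members, against 68.0% of all genes in the table. Of these 49, 10 averaged at least 10 FPKM (35.4% of all detected genes did), and no member reached 100 FPKM. The median of the members' mean levels was 5.20 FPKM, against 6.38 over all 6136 detected genes. STAT3 and the name-matched gene IRF2BP2 were among the most abundant, and the antiviral effectors mostly lay at single digits of FPKM.

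Library 2 held the lowest value of 27 of the 49 detected members, against 21.1% of all detected genes. The lowest value lay in library 1 for 2 members (26.5% of all detected genes), in library 3 for 5 (13.9%), in library 4 for 6 (23.8%) and in library 5 for 9 (16.0%). The highest value lay in library 3 for 21 members (17.5% of all detected genes) and in library 1 for 16 (24.4%). Libraries 2, 4 and 5 held the highest value of 2, 2 and 8 members, against 15.5%, 25.3% and 17.2% of all detected genes. The members were thus low in library 2 and high in libraries 1 and 3 more often than the genes of the table at large. No test was made of this, since the 5 libraries form 1 group and the members were chosen with this pattern known in part. Without library 3, library 1 held the highest value of 31 of 48 members, against 29.0% of all detected genes. Without library 2, the lowest value lay in library 4 for 21 and in library 5 for 18 of 51 members, against 28.2% and 21.3% of all detected genes.

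**Figure D1:**
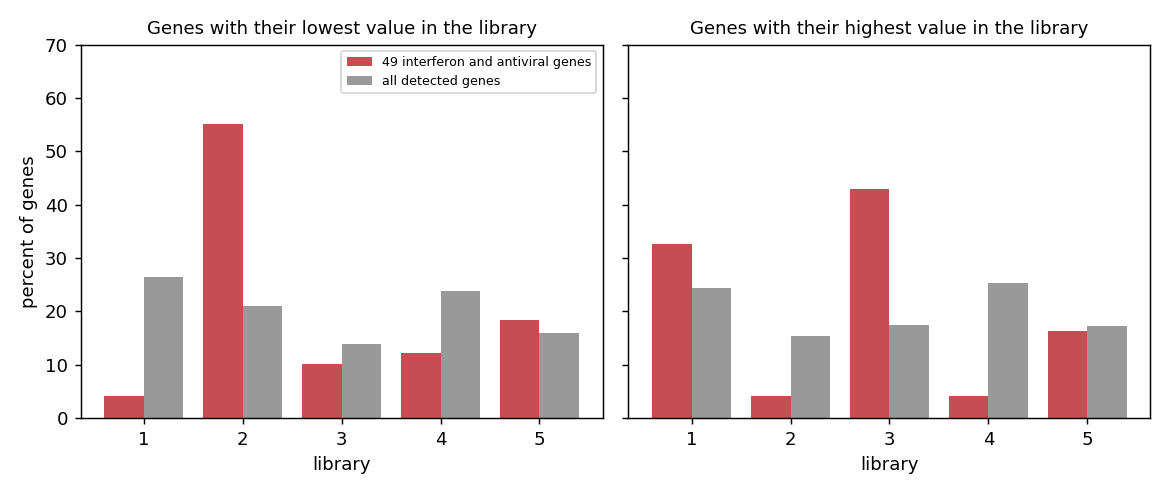
Percent of genes whose lowest (left) or highest (right) value of the 5 libraries lay in each library, for the 49 detected interferon and antiviral genes (red) and for all 6136 detected genes (grey). The red bars stand above the grey in library 2 and slightly in library 5 (18.4% against 16.0%) on the left, and in libraries 1 and 3 on the right.

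The size of the deviations also set library 2 lowest and libraries 1 and 3 highest. By median deviation, library 1 lay slightly above library 3, and library 4 lay below library 5, unlike in the counts of extremes. Deviations were taken on the log2(FPKM + 1) scale from each gene's own mean over the 5 libraries, and the members' median deviation was 0.19, -0.29, 0.16, -0.10 and -0.0009 in libraries 1 to 5. Over all detected genes the medians lay between -0.02 and 0.03. A deviation of at least 0.25 below the mean occurred in library 2 for 26 members (17.3% of all detected genes) and in libraries 1, 3, 4 and 5 for 0, 4, 10 and 9 members (21.1%, 12.3%, 18.4% and 13.9%). Library 1 had 19 members at least 0.25 above their mean (21.1%), library 2 had 0 (14.2%) and library 3 had 18 (15.4%). In libraries 4 and 5 there were 2 (21.1%) and 6 (14.7%). Library 4 thus lay on the low side for the members, while over all detected genes such high and low deviations there were about equally frequent.

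Scaling mattered for the place of libraries 1 and 4. When each library was rescaled to a fixed total (TPM), the median of all genes shifted to 0.12 in library 1 and to -0.08 in library 4. The share of members highest in library 1 then was 44.3% (27 of 61), beside 32.7% (16 of 49) on the deposited scale. All genes moved from 24.4% to 33.9%. The share lowest in library 4 was 29.5% (18 of 61) beside 12.2% (6 of 49), and all genes moved from 23.8% to 32.4%. More members passed the detection limit with TPM, so the sets compared differ as well as the scale. On that scale 44.3% of members had their lowest value in library 2, against 20.2% of all genes, and 31.1% their highest in library 3, against 16.8%. The low place of library 2 was thus seen under either scaling, with median-ratio size factors too (24 of 49 members, against 17.7% of all genes).

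**Figure D2:**
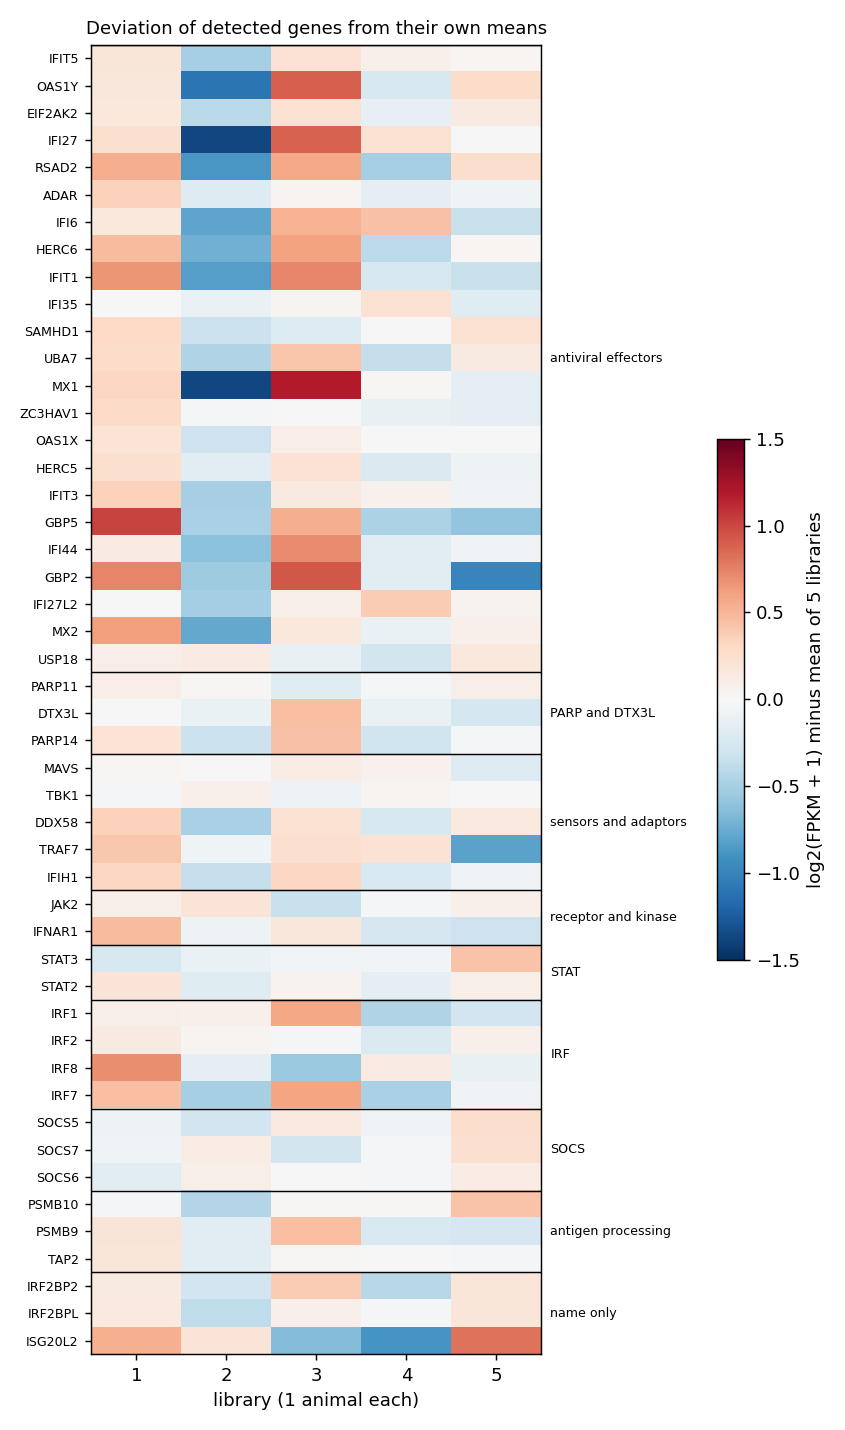
Deviation of the detected genes reported here (rows, grouped by role and ordered by mean level) from each gene's own mean of log2(FPKM + 1), in each of the 5 libraries (columns). Blue cells in library 2 and red cells in library 3 are most intense among the antiviral effectors, such as MX1 and IFI27, while TBK1, PARP11 and SOCS6 stay pale.

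The antiviral effectors held most of the members' lowest values in library 2. They numbered 27 genes, of which 23 were detected. Of these 23, 17 had their lowest value in library 2, against 21.1% of all detected genes. Their highest value lay in library 3 for 12 (17.5% of all detected genes) and in library 1 for 8 (24.4%). Summed over the 27 genes, effector FPKM was 136, 63.3, 153, 99.2 and 106 in libraries 1 to 5. Library 2 was the lowest of the 5 and library 3 the highest. In bulk tissue, fewer cells of a type and less RNA per cell cannot be told apart. Among the 26 detected members outside the effectors, 10 had their lowest value in library 2. The highest value of these 26 lay in library 3 for 9 and in library 1 for 8.

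MX1, a dynamin-like GTPase that traps viral nucleocapsids, had the greatest spread of all members. It was at 3.82, 0.511, 7.88, 2.92 and 2.505 FPKM in libraries 1 to 5, a mean of 3.53 ± 2.72 (SD, n = 5). Library 3 stood 5.87-fold above library 2 on the FPKM + 1 scale, and the SD of its log2 values, 0.92, exceeded that of 95.4% of detected genes. MX2, its neighbour and paralog, was at 2.19, 0.223, 1.32, 0.934 and 1.19 FPKM in libraries 1 to 5. Both MX genes were thus lowest in library 2, but MX2 was highest in library 1. MX1 was higher than MX2 in 5 of 5 animals, by 1.87-fold on the FPKM + 1 scale. The size of this ratio depended on the added constant, with a mean log2 ratio of 0.91 with 1 FPKM and 1.35 with 0.1 FPKM added.

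OAS1Y and IFI27 showed the same extremes at a higher level. OAS1Y (ENSBTAG00000039861), an oligoadenylate synthetase that activates the antiviral ribonuclease RNase L, was at 11.7, 4.26, 19.95, 8.53 and 12.7 FPKM in libraries 1 to 5, a mean of 11.4 ± 5.79 (SD, n = 5). IFI27, a small mitochondrial membrane protein strongly induced by type I interferon, was at 8.24, 2.02, 13.4, 8.16 and 6.82 FPKM. The highest library exceeded the lowest by 3.98-fold for OAS1Y and 4.75-fold for IFI27 on the FPKM + 1 scale. In both genes library 2 was lowest and library 3 highest, and the other 3 lay between.

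The 3 other OAS genes lay below OAS1Y. OAS1X was at 3.35, 2.03, 3.04, 2.80 and 2.75 FPKM in libraries 1 to 5, while OAS1Z averaged 0.896 ± 0.499 and OAS2 0.391 ± 0.270 (SD, n = 5). On the FPKM + 1 scale OAS1Y was higher than OAS1X by 3.00-fold and higher than OAS2 by 8.23-fold, each in 5 of 5 animals. The ratio to OAS2 depended on the added constant, with a mean log2 ratio of 3.04 with 1 FPKM and 4.56 with 0.1 FPKM added. The OAS1 copies are close paralogs, so fragments may have been divided between them by the estimate, and the level of each copy is uncertain.

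RSAD2 (viperin, a radical SAM enzyme), IFIT1 and HERC6 were high in both library 1 and library 3. RSAD2 was at 10.7, 3.40, 10.9, 4.67 and 8.62 FPKM in libraries 1 to 5. IFIT1, which binds viral RNA that lacks the host cap marks, was at 7.08, 1.88, 7.53, 3.35 and 3.08 FPKM. HERC6, a HECT-type ligase of the ISG15 conjugation family, was at 6.48, 2.26, 7.12, 3.09 and 4.48 FPKM. In all 3 genes libraries 1 and 3 were close to each other, and library 2 was the lowest.

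IFIT5 was the most abundant effector and one of the steadier ones. Across libraries 1 to 5 it was at 16.8, 10.1, 17.3, 15.6 and 15.1 FPKM, so that library 2 alone stood lower. EIF2AK2, the kinase PKR that halts translation on sensing double-stranded RNA, was at 9.05, 5.78, 9.51, 7.23 and 8.89 FPKM. The SD on the log2 scale was 0.29 for IFIT5 and 0.26 for EIF2AK2, close to the median of all detected genes, 0.25. IFIT3 averaged 2.24 ± 0.657 FPKM (SD, n = 5) and was lowest in library 2 as well.

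GBP5 and GBP2, guanylate-binding GTPases best known as targets of interferon gamma, differed from this order in library 5. GBP5 was at 4.80, 1.05, 3.18, 1.07 and 0.906 FPKM in libraries 1 to 5, so that libraries 2, 4 and 5 were alike and low. GBP2 was at 2.84, 0.594, 3.41, 1.07 and 0.163 FPKM, with its lowest value in library 5 and not in library 2. GBP4 kept the order of MX1: it averaged 0.953 ± 0.634 FPKM (SD, n = 5), just under the detection limit, with its lowest value in library 2 and its highest in library 3.

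The other effectors spanned a range from clear differences to near evenness. IFI6, a mitochondrial antiapoptotic protein, was at 6.14, 2.70, 8.19, 7.62 and 4.04 FPKM in libraries 1 to 5, and IFI44 at 2.10, 0.844, 3.64, 1.51 and 1.74. UBA7, the activating enzyme of ISG15 conjugation, averaged 4.15 ± 1.32 FPKM, SAMHD1, which depletes deoxynucleotides, 4.41 ± 1.003, and IFI27L2 1.56 ± 0.535 (SD, n = 5). These 5 genes were lowest in library 2. ADAR, which edits adenosine in double-stranded RNA, was also lowest there, but its range was narrow, from 5.79 to 8.88 FPKM. On the FPKM + 1 scale it exceeded ADARB1, the related editing enzyme, by 4.58-fold in 5 of 5 animals, a mean log2 ratio of 2.20 that became 3.20 with 0.1 FPKM added.

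Of the effectors whose lowest value lay elsewhere, IFI35, ZC3HAV1, GBP5 and GBP2 were lowest in library 5, and HERC5 and USP18 in library 4. IFI35 averaged 4.46 ± 0.595 FPKM, ZC3HAV1 (the CpG-binding protein ZAP) 3.36 ± 0.551, HERC5 2.27 ± 0.493 and USP18 1.12 ± 0.262 (SD, n = 5). These last 4 genes varied little, with an SD on the log2 scale of at most 0.22. USP18, which removes ISG15 from proteins and blocks the type I receptor, had its highest value in library 5.

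**Figure D3:**
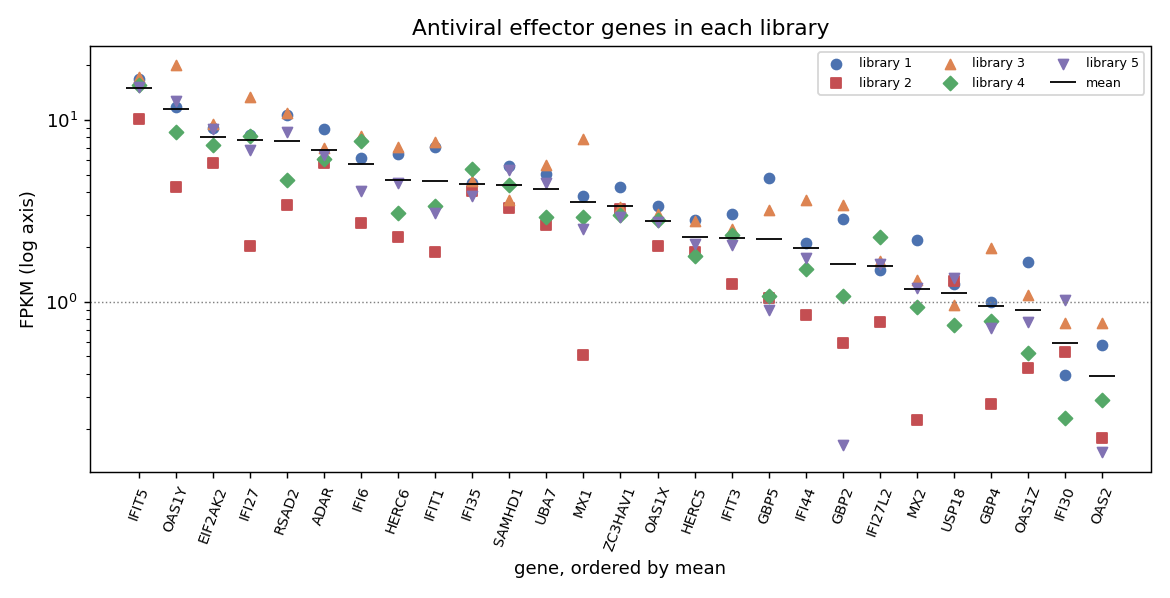
FPKM (log axis) of the 27 antiviral effectors in each library, ordered by mean level (black bars), with the detection limit of 1 FPKM as a dotted line. The red squares of library 2 lie lowest for 17 of the 23 detected genes, and reach 0.511 FPKM for MX1.

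An SD of at least 0.5 on the log2(FPKM + 1) scale was reached by 12 of the 49 members, against 15.9% of all detected genes. Of these 12, 10 were effectors, namely MX1, IFI27, GBP2, OAS1Y, GBP5, IFIT1, RSAD2, HERC6, IFI6 and MX2. The others were IRF7 and ISG20L2. The median SD was 0.31 over the members, 0.39 over the 23 effectors and 0.26 over the 26 others. Without library 2 it was reached by 8 of 51 members (15.7%), near the 16.0% of all detected genes, so the higher share among the members rested on that library. Among members with a mean of at least 5 FPKM it was 4 of 25, or 16.0% against 10.9% of all such genes.

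Among receptors and Janus kinases, JAK2 was the most abundant. It was at 17.6, 18.9, 12.9, 16.2 and 17.5 FPKM in libraries 1 to 5, so that it was lowest in library 3 and highest in library 2, opposite to the effectors. IFNAR1, a chain of the type I interferon receptor, was at 8.83, 5.67, 6.91, 4.94 and 4.67 FPKM, highest in library 1. IFNGR1, the ligand-binding chain of the interferon gamma receptor, averaged 0.750 ± 0.335 FPKM (SD, n = 5), but a single high-numbered transcript was listed for it. JAK1, TYK2, IFNAR2 and IFNGR2 were not analysed here.

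The STAT factors reported here lay at unequal levels. STAT3, the main factor of interleukin-6 family signalling, was at 30.1, 33.4, 34.8, 34.7 and 48.8 FPKM in libraries 1 to 5, a mean of 36.4 ± 7.20 (SD, n = 5). Library 5 stood apart from the other 4, and the mean held rank 607 of the 6136 detected genes. STAT2, a factor of type I interferon signalling, was at 8.15, 6.06, 7.29, 6.21 and 7.51 FPKM. It was lowest in library 2, but its highest value, in library 1, exceeded its lowest by only 1.3-fold on the FPKM + 1 scale. STAT4, which acts in lymphocytes, averaged 0.228 ± 0.119 FPKM (SD, n = 5), an uncertain level because a listed transcript of another gene overlaps its start.

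The interferon regulatory factors divided into steady and variable genes. IRF2, a repressor of interferon responses, was steady at 7.45, 6.97, 6.54, 5.62 and 7.17 FPKM in libraries 1 to 5. IRF1, an early interferon gamma target, was at 8.10, 8.0, 11.8, 5.27 and 5.99 FPKM, so that library 3 was highest and library 2 was not low. IRF7, the inducible amplifier of type I interferon, was at 1.65, 0.371, 1.92, 0.385 and 0.874 FPKM, low in libraries 2 and 4. IRF8, a factor of myeloid cells, was at 2.55, 0.987, 0.481, 1.37 and 1.02 FPKM, and was lowest in library 3. IRF1 and IRF2 did not separate. The log2 ratio averaged 0.15 ± 0.38 (SD, n = 5), IRF1 was higher in 3 of 5 animals, and without library 3 the mean was -0.0050.

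Of the RNA sensors, DDX58 and IFIH1 had the low library 2 of the effectors, while MAVS and TBK1 downstream did not. DHX58, under the detection limit, was lowest in library 4. DDX58 was at 7.42, 3.75, 6.74, 4.62 and 6.33 FPKM in libraries 1 to 5, and IFIH1 at 3.71, 1.98, 3.71, 2.22 and 2.65. Both were lowest in library 2 and next lowest in library 4. DDX58 exceeded IFIH1 by 1.75-fold (FPKM + 1) in 5 of 5 animals. MAVS, the mitochondrial adaptor of both sensors, was at 12.6, 12.3, 13.4, 13.0 and 10.7 FPKM, and TBK1 at 8.46, 9.06, 7.998, 8.84 and 8.57. Only 1.40% of detected genes had a smaller SD than TBK1. TRAF7, a ubiquitin ligase of the TRAF family, was at 5.12, 3.43, 4.50, 4.41 and 1.67 FPKM, lowest in library 5.

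The SOCS genes listed were SOCS5, SOCS6 and SOCS7, and each had its highest value in library 5, as did 17.2% of all detected genes. For SOCS6 the lead was narrow, with 6.68 FPKM against 6.55 in library 2. SOCS5 was at 10.6, 9.02, 12.5, 10.8 and 13.7 FPKM in libraries 1 to 5, SOCS6 averaged 6.11 ± 0.548 and SOCS7 8.27 ± 1.22 (SD, n = 5). Their sum was 30.2 FPKM in library 5 and between 23.7 and 25.2 in the other 4. SOCS1 and SOCS3, the classical feedback inhibitors of interferon and cytokine signalling, were not analysed here.

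**Figure D4:**
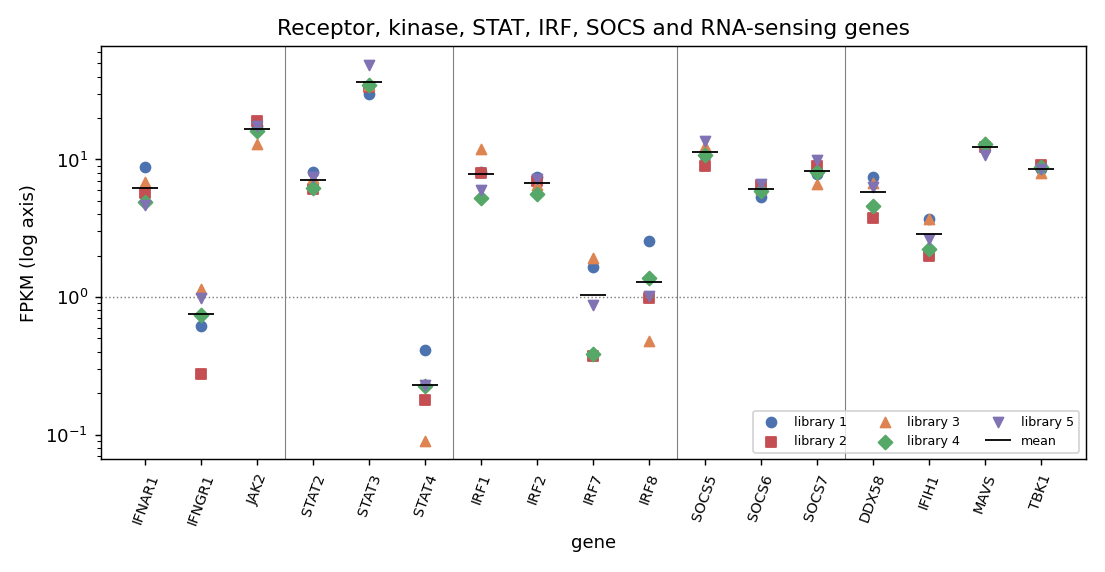
FPKM (log axis) of receptor, kinase, STAT, IRF, SOCS and RNA-sensing genes in each library, with black bars at the mean and a dotted line at 1 FPKM. STAT3 lies between 30.1 and 48.8 FPKM and TBK1 between 7.998 and 9.06, while IRF7 runs from 0.371 to 1.92.

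PARP14 and DTX3L were highest in library 3 and PARP11 was not. PARP14, a macrodomain ADP-ribosyltransferase, was at 4.78, 3.01, 5.75, 3.06 and 3.91 FPKM in libraries 1 to 5. DTX3L, the ubiquitin ligase that pairs with PARP9, was at 4.67, 4.31, 6.80, 4.32 and 3.75 FPKM, so that library 3 alone stood high. PARP11 averaged 5.20 ± 0.471 FPKM (SD, n = 5) and had its lowest value in library 3.

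Antigen-processing members were moderate in level and mixed in order. PSMB10, a catalytic subunit of the immunoproteasome, was at 10.004, 7.30, 10.4, 10.3 and 14.1 FPKM in libraries 1 to 5, and PSMB9, another such subunit, at 7.25, 5.43, 8.80, 5.15 and 5.04. PSMB10 was thus highest in library 5, where PSMB9 was lowest. PSMB7, the constitutive subunit that PSMB10 replaces, averaged 76.7 ± 10.3 FPKM and exceeded PSMB10 by 6.88-fold (FPKM + 1) in 5 of 5 animals. TAP2, a chain of the transporter that carries peptides to MHC class I, averaged 3.85 ± 0.410 FPKM (SD, n = 5). NLRC5, the class I transactivator, averaged 0.296 ± 0.143 FPKM, from a single high-numbered transcript.

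Gene pairs were compared within libraries by the log2 ratio of FPKM + 1, and 9 of the 28 pairs considered had both genes listed. In 8 of the 9 the direction was the same in 5 of 5 animals. For each of these 8 the exact two-sided sign-flip permutation test gave p = 0.0625, the smallest that 5 libraries allow, and 0.0703 after Benjamini-Hochberg adjustment over the 9 pairs. IRF1 and IRF2 gave an exact p of 0.5625 (adjusted 0.5625). No pair could pass 0.05 in this design, and 0 of 9 had an unadjusted p under it. The mean log2 ratio was 0.91 ± 0.63 for MX1 over MX2, 1.58 ± 0.59 for OAS1Y over OAS1X and 3.04 ± 0.58 for OAS1Y over OAS2 (SD, n = 5). It was -2.78 ± 0.38 for PSMB10 over PSMB7, -0.81 ± 0.13 for IFIH1 over DDX58 and 2.20 ± 0.45 for ADAR over ADARB1. The added 1 FPKM sets much of the ratio for OAS2 and ADARB1, which averaged 0.391 and 0.727 FPKM. It also weighs on the ratio to MX2, which averaged 1.17 FPKM.

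Several symbols were matched by the name pattern without belonging to the interferon system by function. IRF2BP2 and IRF2BPL, nuclear proteins of the IRF2-binding family, averaged 39.5 ± 9.12 and 14.3 ± 2.23 FPKM (SD, n = 5). IRF2BP2 was at 42.5, 31.6, 50.7, 28.8 and 44.0 FPKM in libraries 1 to 5, low in libraries 2 and 4. ISG20L2, a nuclease of ribosome biogenesis, was at 2.64, 1.88, 0.601, 0.357 and 3.41 FPKM, an order unlike that of the effectors. TRAF3IP3 stood out in library 5, with 2.03 FPKM against 0.349 or less in the other 4.

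The 13 members under a mean of 1 FPKM were GBP4, OAS1Z, IFI30 and OAS2 among the effectors, TRAF3, DHX58, TLR2, TRAF1 and TRAF5 among the sensors and adaptors, and IFNGR1, STAT4, NLRC5 and TRAF3IP3. DHX58, the regulatory relative of DDX58, was at 0.702, 0.187, 1.01, 0.0098 and 0.538 FPKM. TRAF1 was listed at 0 in library 1, the single zero among the members' gene sums. IFI30, DHX58, TRAF1, TRAF5, IFNGR1, NLRC5 and TRAF3IP3 each had a single listed transcript that was not the lowest in number, so their low sums may be partial. Such gaps in transcript numbering occurred for 16 of the 62 members, among them IRF7, IFI27, GBP2, UBA7 and TAP2. ISG15, IRF3, IRF9, TAP1, PSMB8, MYD88, STING1 and BST2 were not analysed here.

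Several members lay side by side in the genome. IFIT3, IFIT1 and IFIT5 followed each other on chromosome 26 between 11043454 and 11091761, and MX2 and MX1 on chromosome 1 between 141621165 and 141706496. OAS2, OAS1Y, OAS1X and OAS1Z lay on chromosome 17 between 61338202 and 61402638, HERC5 and HERC6 on chromosome 6 between 36257293 and 36367045, and DTX3L and PARP14 on chromosome 1 between 66988057 and 67058498. Some neighbours were alike in spread and others were not. The SD of log2 values was 0.27 for DTX3L and 0.33 for PARP14. It was 0.31 for IFIT3 and 0.29 for IFIT5, but 0.68 for IFIT1, which lies between them. The SD of log2 values was 0.92 for MX1 and 0.50 for MX2, 0.68 for IFIT1 and 0.29 for IFIT5, 0.74 for OAS1Y and 0.20 for OAS1X, and 0.56 for HERC6 and 0.21 for HERC5. Coordinates are those of the table, whose build is in doubt. The submitters' processing notes name UMD3.1. However, 59 of 59 members matched by symbol, synonym or Ensembl identifier overlapped their position in a RefSeq table of ARS-UCD2.0.

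More than 1 transcript was listed for 14 members, and in a few of them the libraries differed in which transcript carried the signal. In libraries 1, 3 and 5 the whole of the TAP2 level came from TAP2-205 (4.48, 3.90 and 3.74 FPKM), and TAP2-203 was listed at 0. In libraries 2 and 4, TAP2-203 reached 2.79 and 3.14 FPKM, which was 83.7% and 82.2% of the gene, and TAP2-205 at 0.542 and 0.681. The sum over transcripts stayed between 3.33 and 4.48 FPKM, so the gene level was even while its transcripts were not.

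SOCS7, PSMB10 and HERC5 had unequal transcripts as well. SOCS7-202 was listed at 0 in libraries 2, 3 and 5 and reached 4.57 FPKM in library 1 and 2.38 in library 4. SOCS7-201 was highest in library 2, at 7.70 FPKM against 6.54 in library 5, although the gene sum was highest in library 5. PSMB10-201 reached 4.21 FPKM in library 5, or 29.9% of the gene, and at most 1.54 FPKM elsewhere, while the main transcript PSMB10-202 ran only from 6.01 to 8.97. HERC5-202 measured 1.49, 0.269, 1.34, 0.698 and 0.875 FPKM in libraries 1 to 5, whereas HERC5-203 was highest in library 2, at 1.61. HERC5-201 was listed at 0 in library 2 and lay between 0.272 and 0.574 FPKM elsewhere. Thus 2 of the 3 HERC5 transcripts were lowest in library 2, while the gene sum was not. Division of fragments among overlapping transcripts is an estimate, and no error of it was given in the table.

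**Figure D5:**
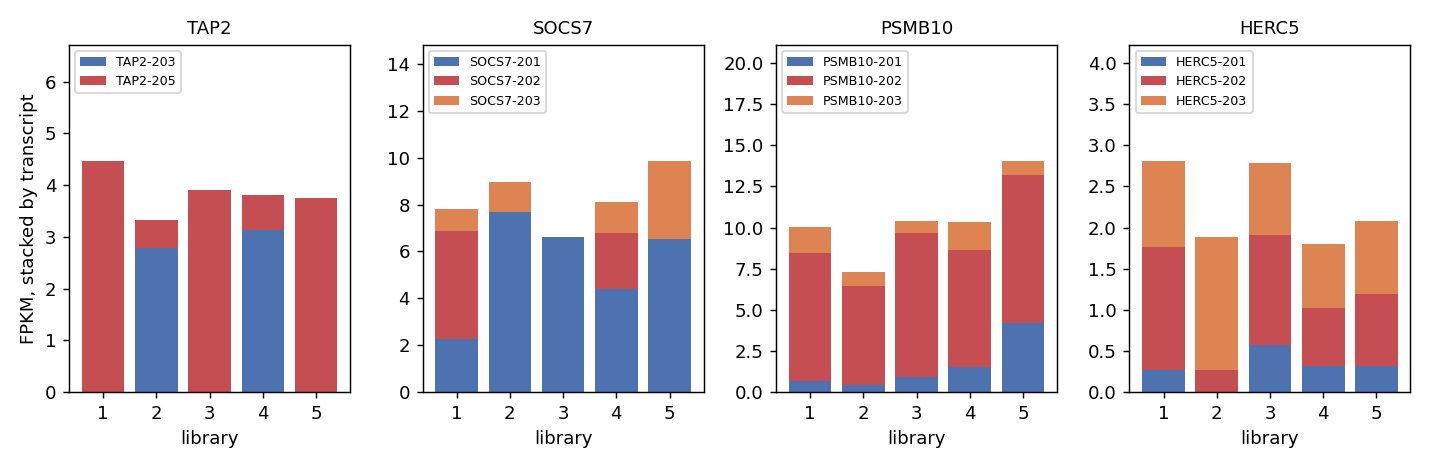
FPKM of each listed transcript, stacked to the gene sum, in libraries 1 to 5 for TAP2, SOCS7, PSMB10 and HERC5. TAP2-203 makes up most of the bar in libraries 2 and 4 and is absent from the other 3, while the height of the bars stays between 3.33 and 4.48 FPKM.

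Other genes of the pathway were read from lists that the name pattern does not cover. Of 42 further interferon-response symbols, 15 were listed and 12 detected, and 7 of these 12 had their lowest value in library 2, against 21.1% of all detected genes. Their highest value lay in library 1 for 6 of the 12 (24.4% of all detected genes). It lay in library 3 for 2 (17.5%), near the share of all detected genes. EPSTI1 was at 4.95, 2.10, 5.47, 3.37 and 4.65 FPKM in libraries 1 to 5, and the chemokine CXCL10 at 4.75, 1.53, 2.33, 1.80 and 4.34. TRIM5, a capsid-binding restriction factor, was at 2.85, 1.02, 2.56, 0.522 and 2.57 FPKM, low in libraries 2 and 4. LAP3, PNPT1 and C1R, the most abundant of the list, averaged 15.5 ± 1.33, 11.8 ± 1.26 and 17.3 ± 2.52 FPKM (SD, n = 5) and were lowest in library 2 as well. C1S went the other way: library 2 was at 11.008 FPKM and no other library exceeded 1.61. EPSTI1 and CXCL10 were chosen for mention after their values had been seen, as were KPNA2, ERAP2 and PSME2 below.

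Of 42 further signalling symbols, 22 were listed and 15 detected, and 3 of the 15 (CISH, PTPN2 and KPNA2) were lowest in library 2, close to the 21.1% of all detected genes. PTPN11, TAB2 and PIAS2, the most abundant of the list, averaged 23.8 ± 1.94, 19.6 ± 1.94 and 15.9 ± 2.61 FPKM (SD, n = 5). CISH, a SOCS family inhibitor induced by STAT5, was at 16.3, 2.04, 14.5, 5.996 and 9.98 FPKM in libraries 1 to 5, lowest in library 2 and high in libraries 1 and 3. PTPN2, a phosphatase of Janus kinases, had 0.0845 FPKM in library 2 and between 1.73 and 3.09 elsewhere.

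Antigen-processing genes outside the name pattern mostly had another order than the effectors. Of 18 symbols 12 were listed and detected, and 2 of them, ERAP2 and PSME2, were lowest in library 2, near the 21.1% of all detected genes. Library 1 held the lowest value of 6 of the 12, against 26.5% of all detected genes. ERAP2, a peptidase that trims class I peptides, was at 8.07, 2.04, 13.7, 8.73 and 9.26 FPKM in libraries 1 to 5, with the extremes of MX1, and PSME2 averaged 24.4 ± 3.01 (SD, n = 5). B2M, the light chain of MHC class I, was at 124, 114, 59.8, 176 and 64.0 FPKM in libraries 1 to 5, lowest in library 3. CANX, a chaperone of class I assembly, averaged 53.5 ± 5.999 FPKM (SD, n = 5). The class I gene BOLA had 36.1 FPKM in library 1 and at most 0.532 in the others, while JSP.1 had 0.498 FPKM there and 8.37 in library 3. Class I genes are highly polymorphic and alike in sequence, so the level of each is uncertain.

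Markers of other cell types were read in the same libraries. The muscle markers were present, with 10 of 12 listed and their summed FPKM between 20904 and 25103. MB, myoglobin, stood apart in library 5, with 766 FPKM against 106 to 214 in the others. The list as a whole did not share this. Of the 10 muscle markers, 3 were lowest in library 5 (16.0% of all detected genes) and 1 was highest there (17.2%). CKM was among those 3, at 2.50 FPKM against 9.67 to 35.5 in the others. Of 22 leukocyte markers 10 were listed and 6 detected; their summed FPKM was 219 in library 1 and between 131 and 146 in the others, mostly from CD74, at 201, 135, 137, 125 and 119 FPKM in libraries 1 to 5. PTPRC, the pan-leukocyte marker CD45, was at 3.71, 2.32, 1.45, 3.41 and 2.37 FPKM in libraries 1 to 5, lowest in library 3. All 6 detected leukocyte markers lay below their own mean in library 2, where the effectors were lowest, and also in library 3, where most effectors were highest. Their median deviation was -0.22 in library 2 and -0.50 in library 3, on the log2(FPKM + 1) scale. CD3E, CD3D and CD8A averaged under 1 FPKM. The 9 listed endothelial markers summed to between 131 and 149 FPKM. The 4 listed fibroblast markers summed to 901, 426, 586, 839 and 493 FPKM, also lowest in library 2. HBB, the only erythrocyte marker listed of 6, was at 1.98, 0.253, 3.09, 0.937 and 0.305 FPKM, with its lowest value in library 2 and its highest in library 3. The part of leukocytes, blood or connective tissue in the effector differences was not tested. Because each animal was sampled and sequenced once, effects of the animal, the cut of muscle, the RNA and the library cannot be told apart.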

How the data were processed

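Total RNA of longissimus dorsi from 5 cattle was sequenced, 1 library per animal, per the labels' protocols. The authors deposited FPKM per transcript and library, per the file headers. The submitters' processing notes list the build UMD3.1 and the tools DESeq2 1.10.1 and HTSeq 0.6.0, with no role for either tool. For the aligner, the FPKM program and the annotation, nothing is given in the sources used here. Since no counts were given, depth is unknown and no counting interval was computed.

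FPKM of the 13391 transcripts were summed per gene identifier (9022 genes) and analysed as log2(FPKM + 1), with a mean of at least 1 FPKM as the detection limit, in Python 3.11.15 with numpy 2.4.6, pandas 2.3.3 and matplotlib 3.10.9. Members were matched by symbol and given a role by symbol. Lowest and highest libraries, deviations of at least 0.25 and SDs of at least 0.5 were counted for members and for all detected genes. Gene pairs were tested by flipping the signs of the 5 ratios (an exact permutation test, two-sided). Dixon's gap ratio above 0.71 marked a library standing apart. Functions were checked on simulated data.

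Named genes were, per role, the 3 of highest mean and 2 of greatest SD, the pairs, libraries standing apart and genes under the limit. For other pathway lists they were the 3 of highest mean and 2 of greatest SD. EPSTI1, CXCL10, KPNA2, ERAP2 and PSME2 were added to these after their values had been seen. The remaining detected members were named to account for all 62. Members, roles, lists and pairs were chosen with earlier results of these data known. The alternatives were a pseudocount of 0.1, other detection limits, TPM, median-ratio size factors, the top transcript only, and leaving out each library. A planned search of promoters for interferon motifs was not run, because no sequences were used here. Results of 1 member and of its gene pairs are not reported here, though counts over the members and pairs include it.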

Additional observations from a re-analysis of the deposited data

Results flagged for a closer look

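The gap between the extreme library and its nearest neighbour was checked for 142 values (genes, pair ratios, role and list summaries). Of these, 8 exceeded the limit for 5 libraries. The limit is set for about 1 in 20 by chance, but that rate cannot be applied to this set. Some list genes were included for their great SD, and the sums overlap with genes that were also checked. Among the members, STAT3 stood apart in library 5 at 48.8 FPKM, and so did TRAF3IP3 at 2.03 FPKM. The summed SOCS genes were also high in library 5, at 30.2 FPKM.

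Outside the members, BOLA was at 36.1 FPKM in library 1, C1S at 11.008 FPKM in library 2, MB at 766 FPKM in library 5, CD74 at 201 FPKM in library 1 and the summed leukocyte markers at 219 FPKM in library 1, each above the other 4 libraries. No gap ratio of the 27 antiviral effectors passed the limit.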

How the results depend on the processing

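Of 440 values recomputed under the alternatives, 365 stayed within their limits (a sign for pairs, 1.5 times for counts, 1 SD between libraries for medians), 74 moved and 1 reversed. The median deviation kept its sign in libraries 1 to 4 in every setting run. A detection limit of 5 FPKM left 25 members, of which 13 were lowest in library 2, 11 highest in library 3 and 6 highest in library 1 (18.7%, 16.4% and 18.7% of all such genes), and 4 had an SD of at least 0.5; all 7 effectors it left were lowest in library 2. The count with an SD of at least 0.5 was 6 when 1 FPKM was required in every library (15.4% of members and 8.86% of all genes) and 23 with TPM (37.7% and 31.1%). TPM values are larger than FPKM here, so the added 1 weighs less and more members pass the limit, 61 in all. Members highest in library 1 numbered 27 with TPM and 16 to 31 with single libraries left out. The log2 ratio of IRF1 over IRF2 ran from -0.0050 to 0.24 with single libraries left out. The number at least 0.25 above their mean in library 1 was 39 of 61 with TPM, beside 19 of 49 on the deposited scale. The median deviation of all genes in library 1 also rose, to 0.12. The share of all genes passing with TPM was not computed. Most other values that moved were counts of 10 or fewer. No paired analysis was possible because there was 1 group. Without counts, the noise of members near 1 FPKM could not be set apart from differences between animals.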
